A study of Homo sapiens with 8 samples.

Results

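The genes described are 37 listed genes of plasma lipoprotein metabolism and sterol export: the apolipoproteins, proteins that assemble lipoprotein particles, extracellular and lysosomal lipases with their angiopoietin-like (ANGPTL) inhibitors, proteins that remodel particles in plasma, lipoprotein receptors, and the sterol efflux pumps with the liver X receptors (LXRs) that switch them on. They were taken by gene symbol from the RNA sequencing of HepG2 cells, a hepatocyte-like line from a human hepatocellular carcinoma. Of the 37 genes, 36 had an identifier among the 38032 in the files, apolipoprotein M (APOM) being not analysed here, and 33 reached the minimum of 10 counts in 2 of the 8 libraries that the study set. These 33 were tested as part of all 13943 genes that passed it.

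All libraries came from unmodified HepG2 cells (genotype WT in the labels), a single line with no donors to compare. The 2D-primed group was 4 libraries of cells kept for 8 days on flat culture plastic, and the 3D-primed group was 4 libraries of cells kept for 8 days on Alvetex Strata, an inert polystyrene membrane with pores, where they pile up in layers. Both were released with trypsin before RNA extraction, and the 3D cultures were started at a higher seeding density, so that density and surface cannot be told apart. Nothing in the labels says how far the 4 cultures of a group were independent, and p-values therefore measure the spread between these samples.

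The liver packs triglyceride and cholesterol around apolipoprotein B into very low density lipoprotein (VLDL), and it also makes apolipoprotein A-I, on which high density lipoprotein (HDL) forms when the pump ABCA1 hands over cholesterol. Lipases in the blood vessel wall then strip the lipid from these particles, with small apolipoproteins and ANGPTL proteins setting their activity, and receptors on hepatocytes take up what is left. Surplus sterol in the hepatocyte activates the LXRs, which raise the transcription of ABCA1 and of ABCG5 and ABCG8, the partner proteins of the pump that sends sterol into bile.

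The libraries held 21599630 to 25019499 counts in 2D-primed and 22153063 to 27844077 in 3D-primed cells, a difference within their spread (two-sided exact permutation test, p = 0.26, n = 4 and 4). Hepatocyte identity was checked with 10 markers, all 10 of which were detected. Their summed level was 75815 to 81956 CPM (counts relative to library size after TMM scaling) in 2D-primed and 103961 to 115246 CPM in 3D-primed libraries. APOB, itself a listed gene, is among these markers, and it was lower in 3D-primed cells although the sum was higher. Of 17 markers of other liver cells, 8 stayed under 10 counts in every library and 4 (MARCO, CD163, STAB2 and CD3E) were at 0 throughout. The 17 summed to 93.8 to 96.5 CPM in 2D-primed and 54.3 to 67.6 CPM in 3D-primed libraries. Transcripts of mitochondrial DNA made up 1.40 to 1.81% of the counts in 2D-primed and 2.47 to 2.98% in 3D-primed libraries (p = 0.029 in the same test, two-sided and exact, n = 4 and 4, the smallest value this design allows). Their part in the values below was not tested. In bulk RNA, fewer cells making a transcript and less of it per cell cannot be told apart.

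Of the 33 genes tested, 17 were higher and 12 lower in 3D-primed than in 2D-primed cells at an edgeR adjusted p below 0.05, and 4 did not pass: apolipoproteins A-V (APOA5) and C-III (APOC3), microsomal triglyceride transfer protein (MTTP) and ANGPTL8. These counts have to be read against the whole transcriptome, in which 63.9% of all genes tested were called, 32.4% of all genes as higher and 31.6% as lower. For the listed genes the called share was 87.9%. The 4 libraries of one group lay wholly above the 4 of the other in 28 of the 33 genes, against 59.8% of all genes tested, and 10 of the 33 changed at least 2-fold, against 11.9%. The median absolute log2 fold change was 0.69 in the listed genes and 0.34 over all genes tested. The listed genes were chosen with earlier results of these data known, and these shares are a description. They include apolipoprotein(a) (LPA), which passed the minimum count only through the 3D-primed libraries and so could hardly count other than as higher. Under the edgeR filter filterByExpr, which drops LPA, 16 of the listed genes were higher and 12 lower.

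The direction differed between roles. Among 13 apolipoprotein genes tested, 8 were higher, with LPA among them, and 3 lower. Among the 5 genes of efflux pumps and LXRs, 4 were higher and 1 lower. All 4 listed receptor genes were lower, with a median log2 fold change of -0.96. Lipases and their inhibitors moved both ways (2 higher, 2 lower, 1 not passing), as did the plasma remodelling proteins (2 higher, 1 lower) and the assembly genes (1 higher, 1 lower, 1 not passing).

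**Figure D1:**
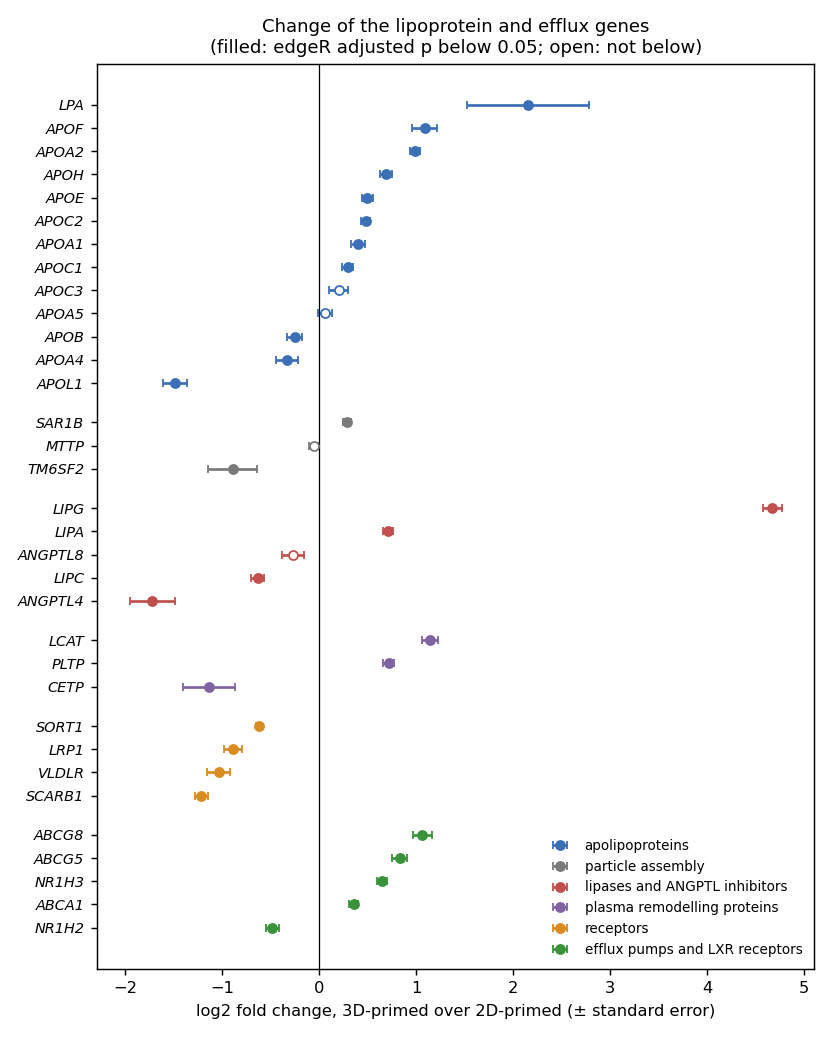
Log2 fold change of each of the 33 genes tested, 3D-primed over 2D-primed, with bars for the standard error, grouped and coloured by role; filled points passed an edgeR adjusted p below 0.05 and open points did not. Endothelial lipase (LIPG) stands at 4.67, far right of every other gene, and the 4 receptors all lie left of 0.

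The stretches upstream of 4 genes and the gap between ABCG5 and ABCG8 are shown because these genes carry contrasts described further on. LIPG and ANGPTL4 have the highest and the lowest fold change of the listed genes tested. APOC2 and APOH are among the apolipoproteins that were higher and do not represent the others. ABCG5 and ABCG8 are read in opposite directions from a single gap. Sequences were taken from RefSeq on GRCh38.p14, each running 5′ to 3′ on the strand of its gene and ending 1 base before the RefSeq start site. Of the 37 genes, 27 had such a window. Capitals mark matches to the motifs given next.

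LIPG, chr18:49561807-49562056, plus strand: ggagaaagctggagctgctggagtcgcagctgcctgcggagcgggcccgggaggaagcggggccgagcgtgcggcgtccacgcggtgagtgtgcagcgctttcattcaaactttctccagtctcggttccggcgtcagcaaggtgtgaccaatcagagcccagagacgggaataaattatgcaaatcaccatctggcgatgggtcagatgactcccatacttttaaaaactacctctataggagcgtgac
ANGPTL4, chr19:8363905-8364154, plus strand: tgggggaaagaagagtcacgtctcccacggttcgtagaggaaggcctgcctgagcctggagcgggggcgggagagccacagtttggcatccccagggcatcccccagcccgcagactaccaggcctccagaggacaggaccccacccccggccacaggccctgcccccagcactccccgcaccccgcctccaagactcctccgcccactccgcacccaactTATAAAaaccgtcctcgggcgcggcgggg
APOC2, chr19:44945801-44946050, plus strand: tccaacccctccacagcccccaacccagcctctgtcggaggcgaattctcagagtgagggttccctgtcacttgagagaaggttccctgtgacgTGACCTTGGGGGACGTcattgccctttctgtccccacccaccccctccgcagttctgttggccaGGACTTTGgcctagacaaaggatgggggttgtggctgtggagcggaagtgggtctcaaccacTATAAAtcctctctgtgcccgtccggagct
APOH, chr17:66229416-66229665, minus strand: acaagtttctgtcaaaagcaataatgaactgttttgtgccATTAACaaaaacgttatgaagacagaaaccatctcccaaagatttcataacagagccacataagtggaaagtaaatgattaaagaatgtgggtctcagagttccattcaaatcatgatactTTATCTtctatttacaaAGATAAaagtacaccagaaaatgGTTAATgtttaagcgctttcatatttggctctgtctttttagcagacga
ABCG5 to ABCG8, chr2:43838840-43838970, plus strand: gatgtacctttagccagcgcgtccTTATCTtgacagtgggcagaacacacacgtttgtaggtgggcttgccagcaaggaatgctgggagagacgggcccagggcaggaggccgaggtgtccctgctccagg

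Both strands of each 300-base window (250 bases before the start site and 50 from it) were searched, and a match is a description of letters, not a site. The TATA box TATAAA stood 30 bases before the start of APOC2 and 29 before that of ANGPTL4, and 11.5% of all 35116 windows hold it. The APOC2 stretch also held the core CAAAGTCC of HNF4 elements on its reverse strand, 92 bases before the start, which 1.20% of all windows hold. In the same stretch the nuclear receptor hexamer AGGTCA lay 156 bases before the start, again in reverse. That match belongs to the LRH-1 element CAAGGTCA and to the imperfect DR4 repeat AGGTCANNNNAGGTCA with up to 2 mismatches, the form that LXRs bind, and these are held by 13.8%, 1.28% and 2.34% of windows. The APOH stretch held the HNF1 hexamer GTTAAT 49 and 210 bases before the start (6.88% of windows) and the GATA element AGATAA at 72 and 89 bases (10.3%). The stretch between ABCG5 and ABCG8 held a single GATA match. The GATA motif was added to the search after these letters had been seen. The LIPG stretch held none of the 10 motifs searched. Windows of listed genes not printed here held the same motifs, including genes that were lower or did not pass. HNF1 matches lay in LIPC and APOA5, the LRH-1 element in LIPC, GATA matches in CETP and MTTP, and a DR4 match in ABCA1. Among the other higher apolipoproteins with a window, APOA2 and APOE matched only the GATA motif, after the start site, and APOC1 matched none. Whether a motif went with the direction of change was not tested.

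Endothelial lipase (LIPG, ENSG00000101670, chromosome 18, 10 exons), a vascular phospholipase that acts mainly on HDL, had the largest change of the listed genes. The 2D-primed libraries held 1.05, 1.17, 0.814 and 1.18 CPM, and the 3D-primed libraries 25.1, 28.1, 28.0 and 26.6 CPM. A gap of 23.9 CPM thus lay between the highest 2D-primed and the lowest 3D-primed library. The rise from 1.05 ± 0.170 to 27.0 ± 1.39 CPM (SD, n = 4) was 25.5-fold, a log2 fold change of 4.67 (SE 0.0983, edgeR adjusted p = 2.6e-09), and the lowest 2D-primed library still gave 20 counts of LIPG.

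Hepatic lipase (LIPC, ENSG00000166035, chromosome 15, 9 exons), the related enzyme that hydrolyses triglyceride and phospholipid of remnants and HDL in the liver sinusoids, went the other way. It measured 57.8, 57.9, 59.3 and 59.2 CPM in 2D-primed and 41.8, 33.9, 34.8 and 40.5 CPM in 3D-primed libraries, and the groups did not overlap (1.55-fold lower, log2 fold change -0.63, SE 0.0663, adjusted p = 1.5e-05). Per kilobase of transcript, LIPC exceeded LIPG in all 8 libraries, but the ratio of their levels was 202 to 296 in 2D-primed and 4.90 to 6.78 in 3D-primed libraries. The size of these ratios depends on the canonical lengths used, 2559 bases for LIPC and 10418 for LIPG.

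Lysosomal acid lipase (LIPA, ENSG00000107798, chromosome 10), which frees cholesterol and fatty acids from lipoproteins taken up by the cell, rose from 95.1 ± 4.88 to 155 ± 9.07 CPM (SD, n = 4), with a log2 fold change of 0.71 (SE 0.0530, adjusted p = 1.4e-06). The range was 87.9 to 98.8 CPM in 2D-primed and 149 to 169 CPM in 3D-primed libraries. Lipoprotein lipase (LPL), the triglyceride lipase of muscle and fat capillaries, was at 0 counts in all 8 libraries. At these depths 3 counts correspond to 0.108 to 0.139 CPM, the upper limit that a count of 0 allows, for counting error only.

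Of the secreted lipase inhibitors, ANGPTL4 (ENSG00000167772, chromosome 19, 7 exons), which inactivates LPL and is induced by fatty acids and fasting, fell 3.29-fold. The 2D-primed libraries measured 22.3, 35.7, 35.1 and 38.9 CPM and the 3D-primed libraries 10.2, 8.86, 14.4 and 6.43 CPM. The groups stayed apart although both were scattered, with replicate 1 lowest among the 2D-primed libraries (log2 fold change -1.72, SE 0.231, adjusted p = 8.8e-05). ANGPTL8, an insulin-responsive member of the family, measured 7.81 to 10.9 CPM in 2D-primed and 7.0 to 7.96 CPM in 3D-primed libraries. These ranges overlapped, and the log2 fold change of -0.27 (SE 0.112) did not pass (adjusted p = 0.055), although it did without 2D-primed replicate 2 (adjusted p = 0.035) or 3 (0.031) and with the replicate number as a block (0.034).

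**Figure D2:**
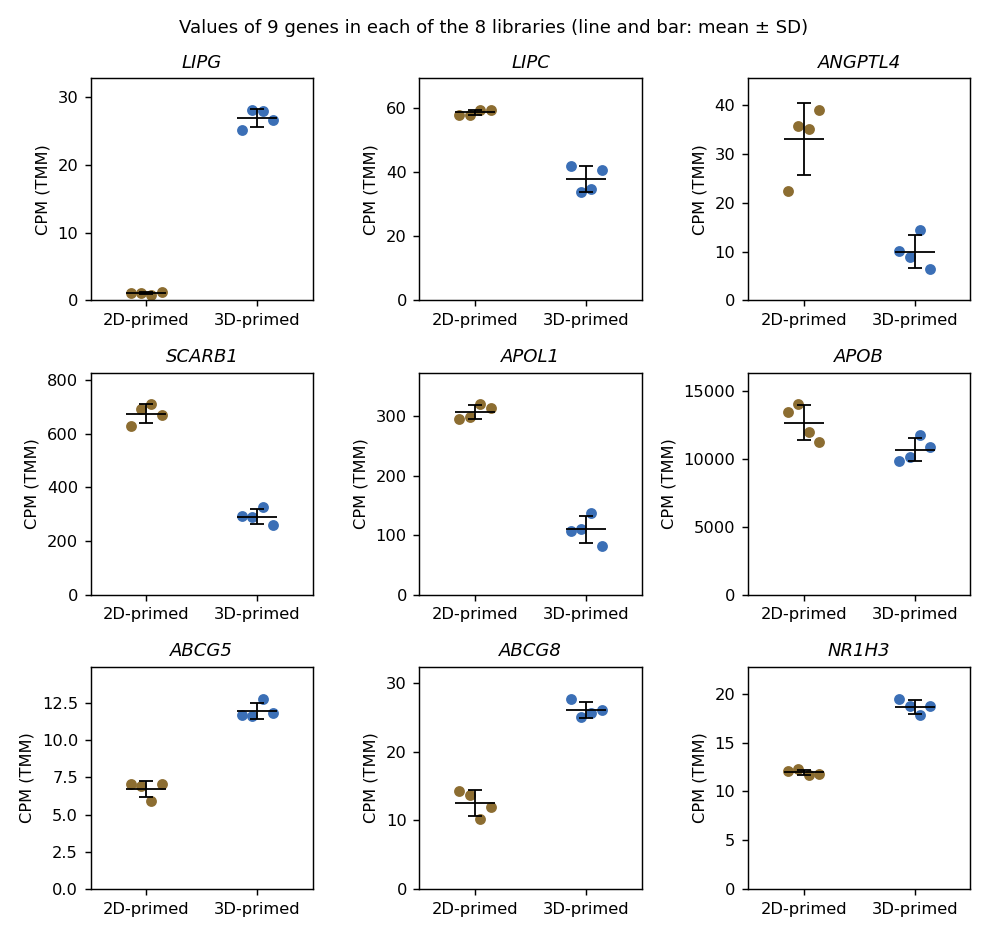
TMM-scaled CPM of 9 genes in each of the 4 2D-primed (brown) and 4 3D-primed (blue) libraries, on axes starting at 0, with a line for the mean and bars for the SD. LIPG goes from about 1 to between 25.1 and 28.1 CPM while LIPC and ANGPTL4 go down, and APOB is the single gene of the 9 in which points of the groups overlap.

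Apolipoprotein A-I (APOA1, ENSG00000118137) is the structural protein of HDL and the acceptor of cholesterol from ABCA1. Its libraries measured 2688, 2904, 2733 and 3088 CPM in 2D-primed and 4373, 3563, 3474 and 3649 CPM in 3D-primed cells. The increase was 1.32-fold (log2 fold change 0.40, SE 0.0744, adjusted p = 8.2e-04), with 3D-primed replicate 1 well above the other 3 libraries of its group. Apolipoprotein A-II (APOA2, ENSG00000158874), the second protein of HDL, measured 1356, 1460.0, 1337 and 1448 CPM in 2D-primed and 3011, 2796, 2759 and 2592 CPM in 3D-primed cells. It was 1.99-fold higher (log2 fold change 0.99, SE 0.0517, adjusted p = 1.5e-07), and the lowest 3D-primed library exceeded the highest 2D-primed one by 1132 CPM.

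Levels of different genes were compared per kilobase of the GENCODE canonical transcript. On this scale APOA1 led among the apolipoproteins in 2D-primed cells, at 3174 ± 202 CPM per kilobase (SD, n = 4), followed by APOA2 at 2954 ± 132. In 3D-primed cells APOA2 led, at 5885 ± 363, over APOA1 at 4188 ± 458. The order of this pair was the same in every library of a group: APOA1 was above APOA2 in 4 of 4 2D-primed and 0 of 4 3D-primed libraries. Apolipoproteins B and E changed places in the same manner, with APOB above APOE in 4 of 4 2D-primed and 0 of 4 3D-primed libraries (899 ± 92.3 and 703 ± 47.0 CPM per kilobase for 2D-primed cells, 757 ± 60.8 and 993 ± 46.3 for 3D-primed cells). Within 2D-primed cells the APOA1 and APOA2 levels were close, their ratio going down to 1.05, so that the order there rests on small differences. Lengths were full transcript lengths (899 bases for APOA1 and 474 for APOA2), with no allowance for fragment length. Such an allowance would weigh most on short transcripts, so the order of APOA1 and APOA2 in 2D-primed cells is uncertain. The same limit holds for APOB and APOE. The shift of each ratio between the groups does not depend on the lengths.

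**Figure D3:**
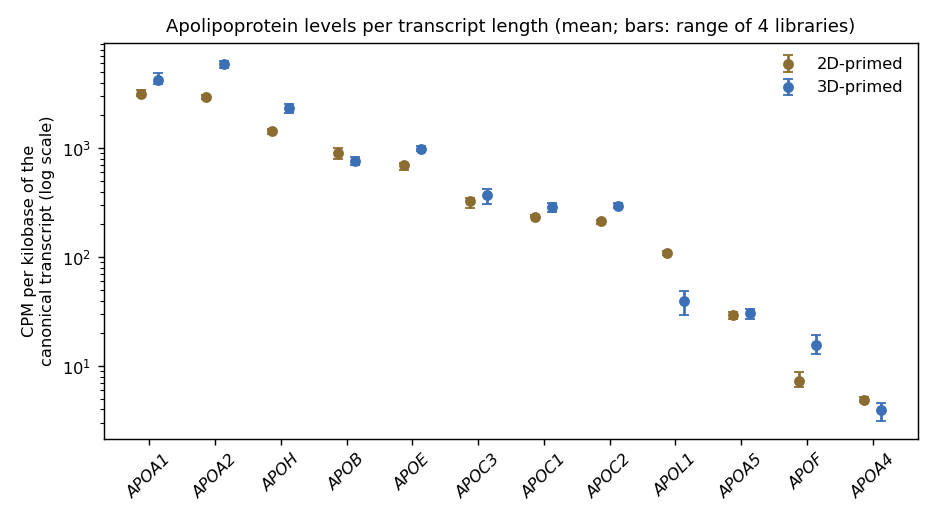
Level of 12 apolipoprotein genes in CPM per kilobase of the canonical transcript, on a log scale, as the mean of 4 2D-primed (brown) or 4 3D-primed (blue) libraries with bars for their range. Per full transcript length, APOA2 overtakes APOA1 and APOE overtakes APOB in 3D-primed cells, and APOL1 is the gene with the widest drop. The order within a pair depends on the lengths used.

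Apolipoprotein B (APOB, ENSG00000084674, chromosome 2, 29 exons), the backbone of VLDL and low density lipoprotein (LDL), was the largest single contributor of counts among the listed genes. Its libraries measured 13508, 14043, 11977 and 11244 CPM in 2D-primed and 9855, 10191, 11793 and 10921 CPM in 3D-primed cells. The gene passed the test (1.19-fold lower, log2 fold change -0.25, SE 0.0768, adjusted p = 0.016), yet 3D-primed replicate 3 lay above 2D-primed replicate 4, so that the groups overlapped. APOB alone made up 1.26% of the counts of 2D-primed libraries on average, against 1.08% for 3D-primed libraries. The other apolipoprotein genes together went from 0.750 ± 0.0317% to 1.13 ± 0.0742% of counts (SD, n = 4), and the groups did not overlap (0.716 to 0.789% against 1.06 to 1.23%).

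The proteins that load lipid onto APOB and move the particle through the secretory pathway had no common direction. MTTP (ENSG00000138823, chromosome 4), the endoplasmic reticulum protein that transfers triglyceride to nascent APOB, measured 265 to 284 CPM in 2D-primed and 253 to 289 CPM in 3D-primed libraries. Its log2 fold change of -0.05 (SE 0.0487) did not pass (adjusted p = 0.39). SAR1B, the GTPase of the vesicle coat that carries large lipoproteins out of the endoplasmic reticulum, rose from 55.4 ± 1.47 to 67.8 ± 2.79 CPM (SD, n = 4), with a log2 fold change of 0.29 (SE 0.0408, adjusted p = 1.2e-04). Its close paralog SAR1A, with which reads may be shared, was also higher (log2 fold change 0.15, adjusted p = 0.0083).

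TM6SF2, an endoplasmic reticulum protein needed for full lipidation of VLDL, was near the limit of detection, with 21, 33, 26 and 37 counts in 2D-primed and 13, 16, 23 and 17 counts in 3D-primed libraries. Scaled to CPM the groups were apart, and the fall of 0.89 on the log2 scale (SE 0.253) passed with an adjusted p of 0.011. In raw counts 3D-primed replicate 3 lay above 2D-primed replicate 1. Of 23 other genes of VLDL assembly and secretion that were tested, 12 were higher, 7 lower and 4 did not pass. Those with the smallest p were the lipid scramblase TMEM41B (log2 fold change 1.38, adjusted p = 4.6e-08), the small membrane protein SMLR1 (1.68, adjusted p = 1.8e-07) and the cargo receptor component MIA2 (0.54, adjusted p = 5.1e-07).

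Apolipoprotein E (APOE, ENSG00000130203), the ligand through which remnants bind their receptors, measured 739, 857, 832 and 849.8 CPM in 2D-primed and 1226, 1155, 1094 and 1157 CPM in 3D-primed libraries. The groups were 236 CPM apart, a 1.41-fold increase (log2 fold change 0.50, SE 0.0550, adjusted p = 2.1e-05). Downstream of it on chromosome 19 lie the C apolipoproteins, small exchangeable proteins that set how lipases and receptors see the particle. Apolipoprotein C-II (APOC2, ENSG00000234906), the cofactor LPL requires, measured 139.6, 145, 134 and 143 CPM in 2D-primed and 207, 194, 198 and 185 CPM in 3D-primed libraries (log2 fold change 0.48, SE 0.0451, adjusted p = 6.5e-06). Its upstream stretch was the one with the HNF4, LRH-1 and DR4 matches shown above. Apolipoprotein C-I (APOC1), an inhibitor of CETP and of remnant uptake, rose from 121 ± 2.65 to 149 ± 11.6 CPM (SD, n = 4), with an adjusted p of 7.7e-04. Its pseudogene APOC1P1 was counted 20 to 61 times per library and can take some of its reads.

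These genes stand within 43.8 kilobases (chr19:44905791-44949565 on GRCh38), together with APOC4, which was at 0 counts in all 8 libraries. The read-through transcript APOC4-APOC2 had 3 to 16 counts per library and did not pass (adjusted p = 0.077). The nearest genes outside the cluster did not move with it as a block. On the APOE side TOMM40 was higher by 0.17 on the log2 scale (adjusted p = 0.019) and NECTIN2 lower (log2 fold change -0.31, adjusted p = 3.1e-04). On the APOC2 side CLPTM1 did not pass (log2 fold change -0.08, adjusted p = 0.20) and RELB was lower (log2 fold change -0.52, adjusted p = 0.0013).

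The chromosome 11 cluster (chr11:116789367-116837622, 48.3 kilobases) holds APOA1, APOC3, APOA4 and APOA5, and its members did not share a direction. APOA1 was higher. Apolipoprotein C-III (APOC3), an inhibitor of triglyceride clearance, measured 171, 186, 153 and 185 CPM in 2D-primed and 228, 195, 211 and 165 CPM in 3D-primed libraries. Its groups overlapped, and the log2 fold change of 0.20 (SE 0.0969) did not pass (adjusted p = 0.092). Without 3D-primed replicate 4, the lowest of its group, the adjusted p was 0.010 and the log2 fold change 0.28.

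Apolipoprotein A-IV (APOA4), mainly an intestinal protein in humans, was lower, at 6.83, 6.87, 7.69 and 7.64 CPM in 2D-primed and 5.62, 6.11, 6.70 and 4.65 CPM in 3D-primed libraries. Its adjusted p of 0.029 (log2 fold change -0.33, SE 0.116) rested on 117 to 189 counts per library. Without 2D-primed replicates 3 or 4 or 3D-primed replicates 1 or 4 it was 0.071, 0.070, 0.060 and 0.062, so that the call hung on single libraries. APOA5, a liver protein that promotes triglyceride clearance, measured 50.6 to 59.1 CPM in 2D-primed and 50.6 to 63.5 CPM in 3D-primed libraries (log2 fold change 0.06, SE 0.0734, adjusted p = 0.46). The 4 flanking genes were lower: BUD13 (log2 fold change -0.18), ZPR1 (-0.69), SIK3 (-0.13) and PAFAH1B2 (-0.39), with adjusted p values of 0.024, 2.0e-07, 0.030 and 5.6e-06.

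**Figure D4:**
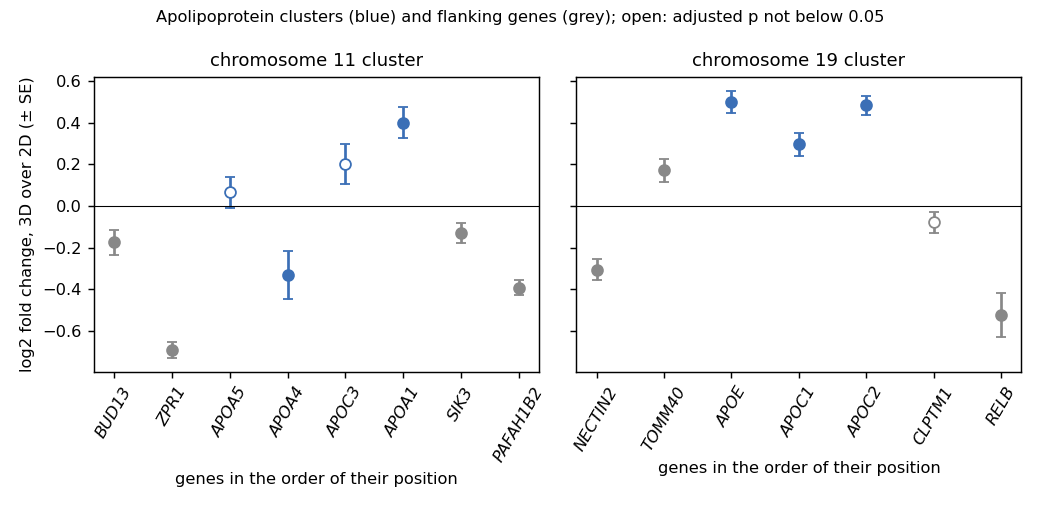
Log2 fold change (3D-primed over 2D-primed, bars for the standard error) of the genes in the apolipoprotein clusters of chromosomes 11 and 19 (blue) and of their flanking genes (grey), placed in genomic order and not to scale; open points had an adjusted p not below 0.05. On chromosome 19 the 3 tested apolipoproteins lie at 0.30 to 0.50, and on chromosome 11 they spread from -0.33 to 0.40 between flanking genes that are all below 0.

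Apolipoprotein H (APOH, ENSG00000091583, chromosome 17, 8 exons), also called beta-2-glycoprotein I and known for binding anionic phospholipid, was among the abundant transcripts. It measured 1702, 1717, 1588 and 1746 CPM in 2D-primed and 3017, 2647, 2462 and 2804 CPM in 3D-primed libraries. The groups lay 716 CPM apart, a 1.62-fold increase (log2 fold change 0.69, SE 0.0608, adjusted p = 4.2e-06). Its stretch shown above held HNF1 and GATA matches, motifs found in 6.88% and 10.3% of all windows. The GATA motif was added to the search after these letters had been seen. Apolipoprotein F (APOF), which modulates CETP, was far less abundant and rose 2.13-fold, from 12.9 ± 1.69 to 27.5 ± 4.87 CPM (SD, n = 4, log2 fold change 1.09, SE 0.131, adjusted p = 3.8e-05). The 3D-primed libraries of APOF ran from 22.6 to 33.7 CPM and those of 2D-primed cells from 11.4 to 15.3 CPM.

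Apolipoprotein L1 (APOL1, ENSG00000100342, chromosome 22, 6 exons), a minor HDL protein that lyses trypanosomes and is induced by interferon, had the largest fall among the apolipoproteins. It measured 295, 298, 320.0 and 313 CPM in 2D-primed and 108, 111, 138 and 82.7 CPM in 3D-primed libraries. The highest 3D-primed library stayed 157 CPM below the lowest 2D-primed one, a 2.79-fold fall (log2 fold change -1.48, SE 0.122, adjusted p = 2.8e-06). Its neighbours and paralogs APOL2 (log2 fold change -0.54, adjusted p = 0.0014) and APOL4 (-1.10, adjusted p = 7.5e-05) were lower too, and APOL6 was higher (1.28, adjusted p = 4.6e-08). APOL1 shares sequence with its paralogs, so that the split of reads among them is uncertain.

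Apolipoprotein(a) (LPA), the protein that turns LDL into lipoprotein(a), was close to absent, with 1, 3, 0 and 3 counts in 2D-primed and 10, 10, 11 and 5 counts in 3D-primed libraries. It passed the minimum count only through the 3D-primed libraries. Its adjusted p was 0.012 (log2 fold change 2.16, SE 0.627), and the fold is poorly determined at these counts. LPA arose from the plasminogen gene PLG, which had 412 to 6371 counts per library and was itself higher by 3.20 on the log2 scale (adjusted p = 1.5e-07). Reads of the 2 genes can be confused, and LPA is given as uncertain. Of 14 other genes of the apolipoprotein family or of HDL-bound proteins that were tested, 6 were higher, 3 lower and 5 did not pass. The called share of 64.3% was close to the 63.9% of all genes tested. The constitutive serum amyloid A gene SAA4 rose by 1.38 on the log2 scale (adjusted p = 1.3e-06).

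Of the proteins that remodel HDL in plasma, lecithin-cholesterol acyltransferase (LCAT, ENSG00000213398, chromosome 16, 6 exons), which esterifies HDL cholesterol, measured 23.6, 24.3, 20.2 and 26.2 CPM in 2D-primed and 52.0, 47.2, 50.5 and 58.9 CPM in 3D-primed libraries. The groups stood 20.9 CPM apart, a 2.21-fold increase (log2 fold change 1.15, SE 0.0863, adjusted p = 1.5e-06). Phospholipid transfer protein (PLTP), which moves phospholipid into HDL, rose from 15.3 ± 0.858 to 25.2 ± 1.05 CPM (SD, n = 4, log2 fold change 0.72, SE 0.0566, adjusted p = 2.1e-06). Cholesteryl ester transfer protein (CETP), which exchanges HDL cholesteryl ester for triglyceride, moved in the opposite direction, at 3.85, 3.98, 4.40 and 4.39 CPM in 2D-primed and 2.00, 1.77, 2.87 and 0.913 CPM in 3D-primed libraries. The groups of CETP did not overlap, but its 3D-primed libraries had the widest relative spread of the 33 genes tested, with a coefficient of variation of 42.6% (log2 fold change -1.13, SE 0.269, adjusted p = 0.0039).

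The 4 listed receptor genes were all lower, whereas 22 further receptor genes and partners, given below, had 9 higher and 9 lower. Scavenger receptor class B type I (SCARB1, ENSG00000073060, chromosome 12, 13 exons), which takes cholesteryl ester from HDL without degrading the particle, measured 629.6, 692, 709 and 668 CPM in 2D-primed and 293, 289, 325 and 258 CPM in 3D-primed libraries. Every 3D-primed library was at least 305 CPM below every 2D-primed one (2.32-fold lower, log2 fold change -1.21, SE 0.0679, adjusted p = 2.3e-07). LDL receptor-related protein 1 (LRP1, ENSG00000123384, chromosome 12, 89 exons), a clearance receptor for APOE-rich remnants, measured 743, 821, 793 and 651 CPM in 2D-primed and 361, 407, 471 and 386 CPM in 3D-primed libraries. Its groups were apart as well (1.85-fold lower, log2 fold change -0.89, SE 0.0908, adjusted p = 1.2e-05).

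The VLDL receptor (VLDLR), a close relative of the LDL receptor that is scarce in normal liver, fell from 23.8 ± 2.88 to 11.6 ± 1.95 CPM (SD, n = 4, log2 fold change -1.04, SE 0.121, adjusted p = 3.2e-05). Sortilin (SORT1), a sorting receptor of the Golgi that binds APOB, fell from 343 ± 8.76 to 224 ± 3.16 CPM (SD, n = 4, log2 fold change -0.62, SE 0.0346, adjusted p = 2.3e-07), and its 3D-primed libraries, at 219.7 to 227 CPM, had the smallest relative spread of the 33 genes tested in that group. Together the 4 receptors made up 0.177% of the counts of 2D-primed libraries on average, against 0.0941% for 3D-primed libraries.

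A uniform fall was not seen in 22 further receptor genes and partners that were tested, of which 9 were higher, 9 lower and 4 did not pass. The scaffold protein PDZK1 was higher by 1.25 on the log2 scale (adjusted p = 4.4e-07) while SCARB1, which it anchors at the hepatocyte surface, was lower, and LRP5 was lower (log2 fold change -0.77, adjusted p = 5.3e-07).

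Of the sterol pumps, the partners ABCG5 (ENSG00000138075) and ABCG8 (ENSG00000143921), 13 exons each, lie head to head on chromosome 2 with start sites 132 bases apart. ABCG5 measured 7.06, 6.92, 5.90 and 7.05 CPM in 2D-primed and 11.7, 11.6, 12.8 and 11.8 CPM in 3D-primed libraries. ABCG8 measured 14.3, 13.7, 10.1 and 11.9 CPM in 2D-primed and 27.8, 25.0, 25.7 and 26.1 CPM in 3D-primed libraries. In both genes 2D-primed replicate 3 was the lowest library and the groups did not overlap. The increase was 1.78-fold for ABCG5 (log2 fold change 0.83, SE 0.0771, adjusted p = 6.1e-06) and 2.09-fold for ABCG8 (log2 fold change 1.06, SE 0.0964, adjusted p = 5.3e-06). Per kilobase the partners were within 1.28 to 1.54 of each other in 2D-primed and 1.10 to 1.30 in 3D-primed libraries, with ABCG5 above ABCG8 in all 8. In CPM the order was the reverse in every library. The order per kilobase thus rests on the canonical lengths, 2760 bases for ABCG5 and 7180 for ABCG8, and which transcript forms these cells use was not tested. Their annotated spans overlap on opposite strands. The study used a directional library kit and counted on cDNA sequences, but whether the counting used strand is not given in the sources used here.

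The genes on either side of the pair were DYNC2LI1, which was higher by 0.33 on the log2 scale (adjusted p = 0.0028), and LRPPRC, which was higher by 0.23 (adjusted p = 1.8e-04). Whether the pair differed in its change from these neighbours was not tested.

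ABCA1 (ENSG00000165029, chromosome 9, 50 exons), the pump that lipidates APOA1, measured 112, 115, 102 and 113 CPM in 2D-primed and 134, 144, 141 and 148 CPM in 3D-primed libraries. The groups were apart, with a 1.28-fold increase (log2 fold change 0.36, SE 0.0489, adjusted p = 1.0e-04). ABCG1, which exports cholesterol to mature HDL in macrophages, was not tested, having 1, 0, 2 and 0 counts in 2D-primed and 1, 0, 0 and 0 counts in 3D-primed libraries.

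The LXRs that drive these pumps changed in opposite directions. LXR alpha (NR1H3, ENSG00000025434, chromosome 11), the form enriched in liver, measured 12.1, 12.3, 11.6 and 11.8 CPM in 2D-primed and 19.5, 18.7, 17.8 and 18.7 CPM in 3D-primed libraries. It was 1.56-fold higher (log2 fold change 0.64, SE 0.0514, adjusted p = 2.2e-06). LXR beta (NR1H2, ENSG00000131408, chromosome 19), the form found in most tissues, measured 22.5, 23.8, 25.0 and 22.6 CPM in 2D-primed and 17.5, 14.9, 17.6 and 17.2 CPM in 3D-primed libraries, and was 1.40-fold lower (log2 fold change -0.48, SE 0.0657, adjusted p = 9.8e-05). Per kilobase NR1H2 was above NR1H3 in 4 of 4 2D-primed and 0 of 4 3D-primed libraries, the level of NR1H3 going from 6.45 ± 0.150 to 10.1 ± 0.381 and that of NR1H2 from 9.71 ± 0.488 to 6.95 ± 0.535 CPM per kilobase (SD, n = 4).

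Of 16 other genes of sterol efflux and LXR signalling that were tested, 7 were higher, 6 lower and 3 did not pass. Cholesterol 7 alpha-hydroxylase (CYP7A1), the rate-limiting enzyme of bile acid synthesis, rose from 2.23 ± 0.407 to 15.0 ± 0.860 CPM (SD, n = 4, log2 fold change 2.75, SE 0.120, adjusted p = 5.8e-08). The LXR target SREBF1, the master regulator of fatty acid synthesis, was higher by 0.82 on the log2 scale (adjusted p = 2.7e-07).

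Genes that handle lipases and transcription factors of the apolipoprotein genes were counted in the same fit. Of 14 genes of lipase folding, cleavage and inhibition that were tested, 5 were higher, 6 lower and 3 did not pass. The collagen-peptidase enhancer PCOLCE2, an HDL-associated protein, was higher (log2 fold change 1.80, adjusted p = 7.9e-08). Both GALNT2, a glycosyltransferase of the Golgi (log2 fold change -0.57, adjusted p = 4.6e-07), and FURIN, a protease that cleaves LIPG (-0.83, adjusted p = 6.8e-07), were lower.

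Of 25 regulators tested, 10 were higher, 8 lower and 7 did not pass. Among them CEBPB (log2 fold change 1.27, adjusted p = 2.0e-08) and the bile acid receptor FXR (NR1H4, 2.17, adjusted p = 6.3e-08) were higher. Over all 6 lists of further pathway genes, 88 of 114 tested genes were called, 49 higher and 39 lower, a share of 77.2% beside 63.9% for all genes tested. By list the share was 64.3% for the apolipoprotein family, 72% for regulators and 78.6% for lipase handling. It was 81.25% for sterol efflux, 81.8% for receptors and 82.6% for VLDL assembly. These shares were not tested against that of all genes, and the lists were chosen with earlier results of these data known.

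**Figure D5:**
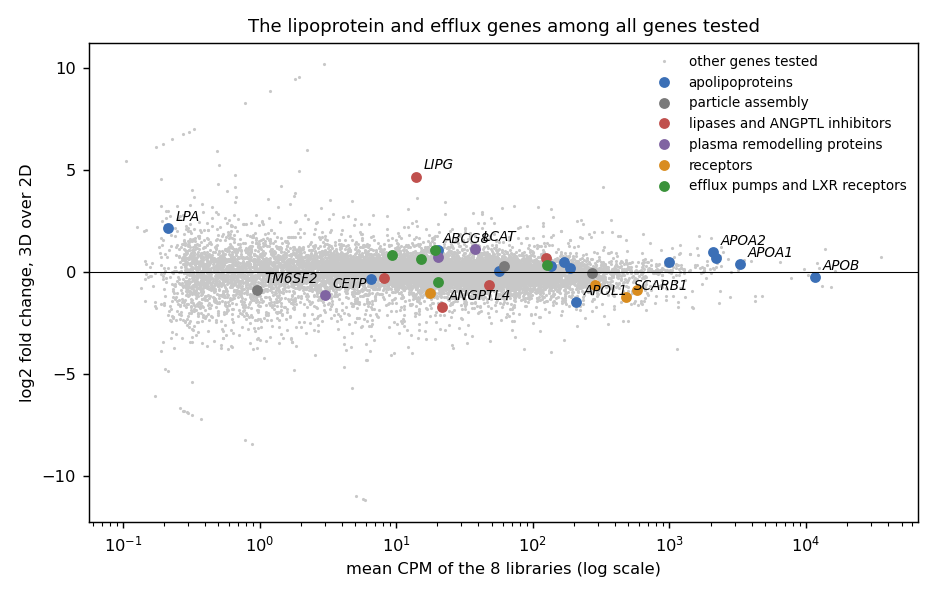
Log2 fold change (3D-primed over 2D-primed) against the mean CPM of the 8 libraries on a log scale for all 13943 genes tested (grey) and the 33 lipoprotein and efflux genes (coloured by role). APOB, APOA1 and APOA2 lie among the most abundant transcripts with changes below 1, and LIPG is the highest of the coloured points.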

How the data were processed

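Poly(A) RNA of 8 HepG2 cultures was sequenced in read pairs. The authors deposited estimated counts per gene for each library, made with Salmon on the human Ensembl cDNA (GRCh38) with tximport giving gene sums. They are whole numbers without scaling to depth, and the tximport setting that decides on a length correction is not given in the sources used here. Groups came from the sample labels. Symbols, positions and lengths came from GENCODE by identifier (29661 of 38032 matched).

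Genes with 10 or more counts in 2 or more libraries were fitted together in edgeR 4.0.16 (R 4.3.3) with TMM factors. Groups were compared by glmQLFTest, with Benjamini-Hochberg adjustment over all 13943 genes and a threshold of 0.05. The SE of a log2 fold change is its size over the square root of F. The steps were tested on simulated data. The common biological coefficient of variation was 0.0934, and same-group libraries differed by more than counting noise (chi-square per degree of freedom 6.15 to 16.9). The alternatives were DESeq2 1.42.0, limma-voom (limma 3.58.1), other size factors and filters, leaving out each library, and the replicate number as a block. Tables and figures used Python 3.11.15, pandas 2.3.3 and matplotlib 3.10.9.

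All 37 members are named, with the 3 genes of smallest p in each further pathway list, read-sharing partners and chromosomal neighbours, the last chosen with values in view. The members and lists were chosen with earlier results of these data known. The values of some single genes named by this rule are not reported here, although they stayed in every test and count.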

Additional observations from a re-analysis of the deposited data

Results flagged for a closer look

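In 2 of the 66 groups of 4 libraries formed by the 33 genes tested, 1 library stood apart from the other 3 by Dixon's ratio, and chance alone marks about 1 group in 20. ABCG5 was low in 2D-primed replicate 3, at 5.90 CPM against 6.92 to 7.06 CPM in the other libraries of that group (gap over range 0.879). NR1H2 was low in 3D-primed replicate 2, at 14.9 CPM against 17.2 to 17.6 CPM (gap over range 0.836). Leaving out either library kept the direction and the call of its gene, with log2 fold changes of 0.77 to 0.86 for ABCG5 and -0.51 to -0.43 for NR1H2 over all 8 omissions.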

How the results depend on the processing

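Over 17 alternatives, the genes called higher numbered 16 to 18 and those called lower 11 to 13, and 544 of 559 single-gene values kept their direction and their side of the threshold. The exceptions were in 4 genes. MTTP, not called, went to 7.7e-06 on the log2 scale under upper-quartile factors, so that its sign turned at a value of practically 0. APOA4 was not called under upper-quartile factors (adjusted p = 0.058), without a filter (0.052) or without any 1 of 4 libraries. APOC3 was called under upper-quartile factors (0.041), with total counts (0.048) and without 3D-primed replicate 4, and ANGPTL8 under 5 alternatives. LPA was dropped by filterByExpr and by the demand for 10 counts in all 8 libraries. Leaving out 1 library at a time gave 8357 to 8875 called genes among all tested.

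The labels do not say whether cultures with the same replicate number were set up together, and no pairing was seen by replicate number. With 4 pairs, a weak shared effect would not show. Deviations from the group mean correlated at -0.052 to 0.12 for the 4 same-number pairs and -0.16 to 0.18 for the others, and 1 of 4 numbers matched best with itself. With the replicate number as a block, 17 of the listed genes were called higher and 13 lower, the added gene being ANGPTL8, with 8490 genes called in all.

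No scaling moved the median log2 fold change of all genes beyond 0.064. Depth limits the values of LPA, TM6SF2 and ABCG1, and nothing can be said of LPL or APOC4 beyond the limit given for a count of 0.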

Other observations

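Within a group, the libraries were not ranked evenly over the called genes. 2D-primed replicate 3 was the lowest of its group in 12 of the 17 genes higher in 3D-primed cells and the highest in 8 of the 12 lower genes. 2D-primed replicate 1 was the lowest in 10 of the 12 lower genes. Among 3D-primed libraries, replicate 3 was the highest in 10 of the 12 lower genes and replicate 1 the highest in 10 of the 17 higher genes. The median coefficient of variation of the genes tested was 6.50% for 2D-primed libraries, against 8.04% for 3D-primed libraries. Genes of one library share its handling and depth, and these counts are a description.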
